A study of Mus musculus with 12 samples.

Results

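Among the 53656 gene rows counted in each thymocyte library, 5 are described here: the Id genes Id2 and Id3, which encode inhibitors, and the E protein genes Tcf3, Tcf12 and Tcf4, which encode the factors that they bind. The 5 genes were taken by symbol from the deposited count files, without regard to their values. All 5 were found, and all 5 are among the 13383 genes that passed the filter on low counts.

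E proteins are basic helix-loop-helix transcription factors that bind E-box sequences as homodimers or heterodimers. Tcf3 encodes E2A (the splice forms E12 and E47), Tcf12 encodes HEB, and Tcf4 encodes E2-2, which is best known from plasmacytoid dendritic cells. Id proteins share the helix-loop-helix part but lack the basic part that contacts DNA, so an Id-E protein dimer does not bind the E-box. In the thymus, E2A and HEB hold double-positive cells at their stage, signalling through the T cell receptor induces Id3, and Id2 is known for its role in innate lymphoid cells and effector CD8 T cells.

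RNA was measured in sorted mouse thymocytes, in 12 libraries that form 4 groups of 3. All animals were Zfp148 fl/fl; Zfp281 fl/fl, so that both zinc finger genes can be removed by Cre recombinase. Control mice were Cd4-Cre negative, and double-knockout (dKO) mice carried Cd4-Cre, in which Cd4 regulatory sequences drive Cre from the double-positive stage on. Immature CD4 cells (ImCD4) were sorted as CD44low, CD4+CD8-, H2-Kb- and CD69+. Immature CD8 cells (ImCD8) were sorted as CD44low, CD8+CD4-, TCRb+ and CD69+, so the gates differed in more than the coreceptor. The controls lacked Cre as well as the deletion, so an effect of Cre itself and of the deletion cannot be told apart. Age and sex of the mice, the exons that are flanked by loxP sites, and whether the libraries came from separate animals are not stated in the sources used here. The p-values thus reflect only how far these libraries spread, and that spread may be technical.

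Groups follow the titles. In the 6 ImCD8 libraries the genotype label is the opposite of the title, whereas in the 6 ImCD4 libraries both say the same. Levels are in CPM, which scales each count to the library's total (after TMM scaling), as mean ± SD (n = 3). Zfp281 was at 486 ± 65.6 CPM in control ImCD4, 18.6 ± 2.62 in dKO ImCD4, 119 ± 7.93 in control ImCD8 and 12.8 ± 2.36 in dKO ImCD8. Zfp148 was at 180.2 ± 3.02, 66.5 ± 3.13, 165 ± 4.84 and 54.9 ± 8.70 CPM in the same order. Both genes were lower in each of the 6 libraries titled dKO than in each library titled control of the same population, so the levels go with the titles. Every comparison of dKO with control in ImCD8 below uses the titles, and its direction would be the opposite under the genotype label. The libraries held 7315833 to 10943143 gene counts. In ImCD4 the dKO libraries were deeper than the controls without overlap (9319732 to 10943143 against 8276742 to 9173424), and their share of mitochondrial counts was lower (0.633% to 0.961% against 1.07% to 1.31%). On the third principal component, which held 5.31% of the variance, the last listed library of each group (replicate 3) lay apart from the other 8. Replicate numbers only name libraries in listed order and pair none.

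Windows of 250 bases upstream of the RefSeq start were read for the genes with an entry (Id2, Id3, Tcf3 and Tcf12, GRCm38.p6), since Zfp148 and Zfp281 are known to bind G-rich DNA and E proteins bind the E-box. The 3 windows below belong to the Id genes and to the most abundant E protein gene, and capitals mark matches to GGGNGGG on either strand (CCCNCCC on the other). Each runs 5′ to 3′ along the gene's strand and ends at the base before the start: Id2 at chr12:25096093-25096342 (minus strand), Id3 at chr4:136143572-136143821 (plus strand) and Tcf3 at chr10:80433636-80433885 (minus strand).
Id2: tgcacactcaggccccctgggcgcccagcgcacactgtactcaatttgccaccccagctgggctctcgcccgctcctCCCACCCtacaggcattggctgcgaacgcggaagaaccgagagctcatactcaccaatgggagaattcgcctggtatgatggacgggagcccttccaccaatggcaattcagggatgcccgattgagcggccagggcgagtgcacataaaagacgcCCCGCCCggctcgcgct
Id3: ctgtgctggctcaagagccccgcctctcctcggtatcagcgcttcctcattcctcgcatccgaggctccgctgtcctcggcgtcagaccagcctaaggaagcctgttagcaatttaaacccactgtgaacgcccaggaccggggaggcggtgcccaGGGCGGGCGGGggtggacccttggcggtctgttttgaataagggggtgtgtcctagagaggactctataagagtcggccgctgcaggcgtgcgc
Tcf3: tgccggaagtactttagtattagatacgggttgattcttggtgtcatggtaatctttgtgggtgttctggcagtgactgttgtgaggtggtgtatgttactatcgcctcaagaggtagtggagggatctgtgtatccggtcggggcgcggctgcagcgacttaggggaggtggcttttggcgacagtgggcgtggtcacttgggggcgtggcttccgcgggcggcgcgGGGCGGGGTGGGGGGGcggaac
The Id2 window held 2 separate GGGNGGG matches, at 173 to 167 and 17 to 11 bases before the start. The Id3 window held 2 that overlap in a run of 11 bases, and the Tcf3 window held 3 that overlap in a run of 16 bases, from 22 to 7 bases before the start. The window of the first Tcf12 start also held 2. At least 1 match occurs in 44.99% of all 32619 mouse windows of this length, whose median GC content is 52.4%, against 62.8% for both Id genes and 59.6% for Tcf3. The E-box CANNTG, searched on both strands, occurred once in the Id2 window (CAGCTG, 196 to 191 bases before the start), once in the Tcf3 window (CACTTG, 54 to 49 bases) and not in the Id3 window. It occurs in 66.2% of all windows. The windows are upstream of the RefSeq start only. By the GENCODE M21 spans given below, those of Id2 and Id3 lie wholly inside the annotated genes. The matches describe letters in these windows, and binding was not measured.

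All 5 genes were expressed, and 4 of them at 65 CPM or more in every library. In GENCODE M21 (GRCm38) the genes lie on chromosome 12 at 25093799 to 25097140, minus strand (Id2), chromosome 4 at 136143497 to 136145755, plus strand (Id3), chromosome 10 at 80409514 to 80433647, minus strand (Tcf3), chromosome 9 at 71842688 to 72111871, minus strand (Tcf12), and chromosome 18 at 69343356 to 69689079, plus strand (Tcf4). No exon of the 5 overlaps an exon of another annotated gene. Reads of all isoforms share a row, so E12 and E47, or the long and short forms of HEB, were not told apart. To compare genes with each other, CPM was divided by the length of the gene's merged exons in kilobases (CPM per kb). On that scale control ImCD4 held 286 CPM per kb of Id2, 121 of Id3, 82.9 of Tcf3, 8.12 of Tcf12 and 0.903 of Tcf4. In control ImCD8 the order of the Id genes was the other way round, with 143 CPM per kb of Id3, 79.9 of Id2, 86.5 of Tcf3, 7.62 of Tcf12 and 0.312 of Tcf4. Id2 and Tcf3 were close in control ImCD8, and which is higher was not tested. Tcf3 made up 87.6% to 92.0% of the summed E protein level per kb over the 12 libraries. With the length of the longest principal transcript in place of merged exons, that share was 79.6% to 86.3%.

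**Figure D1:**
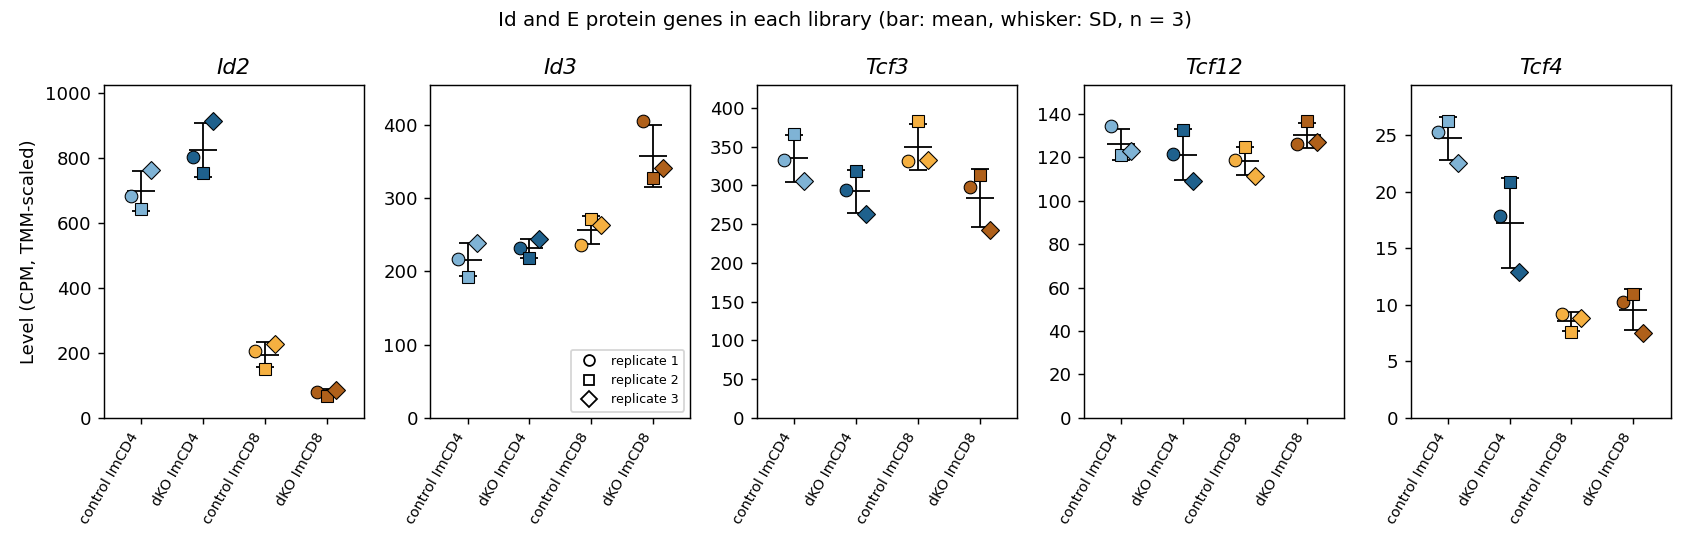
Level of each of the 5 genes (y axis, CPM after TMM scaling, each panel with its own scale from 0) in the 12 libraries by group (x axis). Points are libraries with a shape for each replicate number, bars are means and whiskers SDs (n = 3); Id2 ranged from 65.8 CPM in dKO ImCD8 to 914 CPM in dKO ImCD4.

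The first comparison asked how loss of Zfp148 and Zfp281 in ImCD8 cells changed the 5 genes. Id2 fell and Id3 rose, and none of the 3 E protein genes passed the test. Id2 dropped 2.52-fold and Id3 increased 1.39-fold. Of the 5 genes 2 were called at an edgeR quasi-likelihood adjusted p under 0.05, where the same test called 6.14% of all 13383 genes in ImCD8 (2.62% higher and 3.53% lower).

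Id2 was at 206, 151 and 228 CPM in control ImCD8 and at 80.8, 65.8 and 86.3 CPM in dKO ImCD8. Every dKO library was below every control library. The log2 difference was -1.33 ± 0.15 (SE, edgeR adjusted p = 9.11e-05). Id3, the inhibitor that T cell receptor signalling induces, was at 236, 271 and 263 CPM in control and at 406, 327 and 341 CPM in dKO ImCD8. The groups did not overlap, with replicate 1 highest among the dKO libraries. The log2 difference was 0.48 ± 0.09 (edgeR adjusted p = 0.00543).

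Among the E protein genes, Tcf3 was at 331, 384 and 333 CPM in control ImCD8 and at 297, 313 and 242 CPM in dKO ImCD8. The groups did not overlap, but the difference did not pass the test (-0.30 ± 0.10, edgeR adjusted p = 0.114, 95% interval -0.54 to -0.06). With a term for the 4 libraries apart it was called (-0.30, adjusted p = 0.00839), as it was without the filter on low counts (-0.28, adjusted p = 0.0114). It was not called in the other 19 alternatives, with -0.19 (adjusted p = 0.343) without dKO ImCD8 replicate 3, -0.22 (adjusted p = 0.346) without control ImCD8 replicate 2 and -0.23 (adjusted p = 0.177) without the 4 libraries apart. Tcf12, which encodes HEB, was at 119, 125 and 111 CPM in control and at 126, 137 and 127 CPM in dKO ImCD8, also without overlap (0.14 ± 0.08, edgeR adjusted p = 0.384, interval -0.05 to 0.32). Tcf4 was low at 9.19, 7.61 and 8.82 CPM in control and 10.3, 10.9 and 7.50 CPM in dKO ImCD8, from 54 to 119 counts per library. These groups overlapped (0.16 ± 0.19, edgeR adjusted p = 0.73, interval -0.28 to 0.61). Groups without overlap were found for 4 of the 5 genes in ImCD8, where 21.8% of all genes have such groups. An exact permutation test of 3 against 3 libraries gives p = 0.1 for each, the smallest it can give.

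The second comparison asked the same in ImCD4 cells, and here none of the 5 genes passed the test at an adjusted p under 0.05. The edgeR test called 13.4% of all genes in ImCD4 (7.26% higher and 6.16% lower) and 0 of the 5. Tcf4 lay just past the threshold and was the only member with an unadjusted p under 0.05. Counts of called members under the other tools were 1 with DESeq2 and 1 with limma-voom, in both cases Tcf4.

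Id2 was at 683, 643 and 764 CPM in control ImCD4 and at 804, 753 and 914 CPM in dKO ImCD4. The highest control library exceeded the lowest dKO library, so the groups overlapped. The log2 difference was 0.24 ± 0.14 (edgeR adjusted p = 0.279), with an interval of -0.07 to 0.56. Id3 was at 217, 193 and 238 CPM in control and 231, 218 and 245 CPM in dKO ImCD4, with overlap (0.10 ± 0.10, edgeR adjusted p = 0.55, interval -0.12 to 0.32).

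Tcf4, the E protein gene with the lowest level, was at 25.3, 26.3 and 22.6 CPM in control ImCD4 and at 17.8, 20.9 and 12.9 CPM in dKO ImCD4. All 3 dKO libraries were below all 3 controls, as is the case for 33.8% of all genes in either direction. The log2 difference was -0.52 ± 0.17 (edgeR adjusted p = 0.0505, interval -0.90 to -0.13). It was called without dKO ImCD4 replicate 2 (-0.68, adjusted p = 0.031) and without dKO ImCD8 replicate 3 (-0.52, adjusted p = 0.0309). Tcf3 was at 332, 367 and 305 CPM in control and 294, 319 and 263 CPM in dKO ImCD4, with overlap (-0.20 ± 0.10, edgeR adjusted p = 0.239, interval -0.44 to 0.04). Tcf12 was at 134, 121 and 123 CPM against 122, 133 and 109 CPM (-0.06 ± 0.08, edgeR adjusted p = 0.699, interval -0.24 to 0.13). The point estimates of Tcf3 were below 0 in both populations, and neither passed the test.

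**Figure D2:**
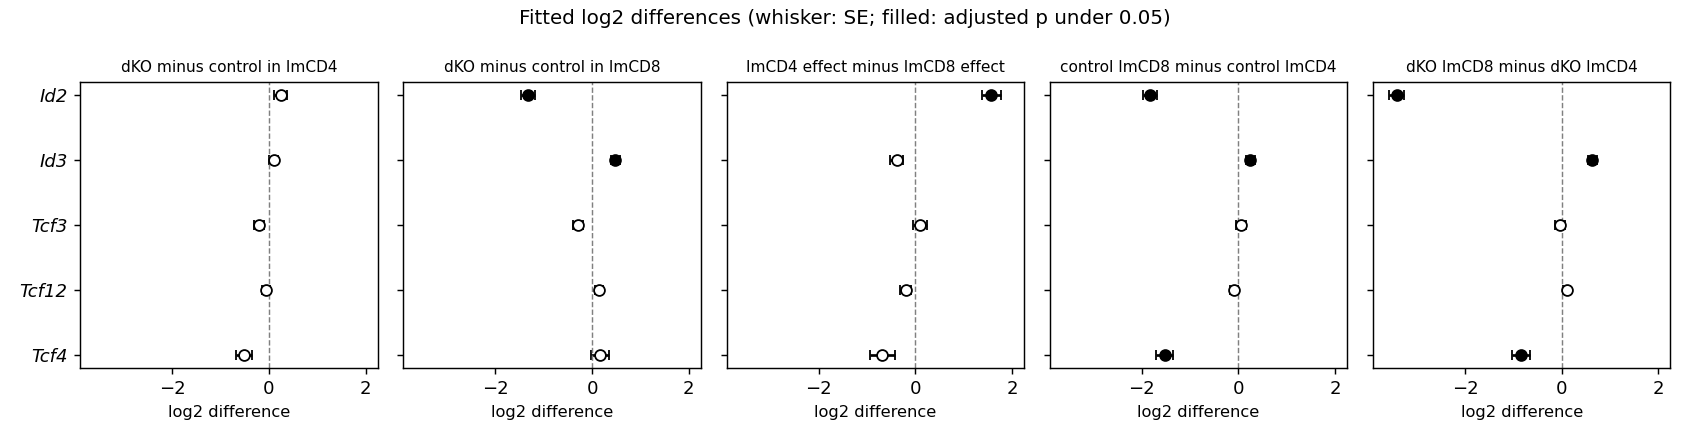
Log2 difference of each gene (x axis, whiskers SE; genes on the y axis) in each of the 5 comparisons, a panel each; filled markers passed an edgeR adjusted p under 0.05. Id2 is at -1.33 for dKO against control in ImCD8 and at 0.24 in ImCD4.

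The effect of the deletion on Id2 differed between the populations, by a test of the difference itself. The ImCD4 effect minus the ImCD8 effect was 1.57 ± 0.20 log2 (edgeR adjusted p = 0.00305, interval 1.11 to 2.04), and the same test called 0.433% of all genes. No other of the 5 genes passed this test. The difference was -0.38 ± 0.13 for Id3 (edgeR adjusted p = 0.327), -0.68 ± 0.26 for Tcf4 (edgeR adjusted p = 0.36), 0.10 ± 0.15 for Tcf3 (edgeR adjusted p = 0.867) and -0.19 ± 0.11 for Tcf12 (edgeR adjusted p = 0.598). Whether the deletion acts on Id3 in ImCD8 only is thus not shown, although it was called there and not in ImCD4.

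Between the populations, Id2 and Tcf4 were lower in ImCD8 than in ImCD4 in both genotypes, and Id3 was higher. These comparisons use the same libraries as those above, and the populations differed in their gates. In controls, 3 of the 5 genes were called, where 45.3% of all genes were (23.1% higher and 22.1% lower in ImCD8). In dKO libraries, 3 of the 5 were called against 43.7% of all genes. Id2 was 3.57-fold lower in control ImCD8 than in control ImCD4 (log2 difference -1.84 ± 0.14, edgeR adjusted p = 2.68e-07) and 10.6-fold lower in dKO ImCD8 than in dKO ImCD4 (-3.41 ± 0.15, edgeR adjusted p = 1.39e-09). Tcf4 was 2.88-fold lower in control ImCD8 (-1.53 ± 0.18, edgeR adjusted p = 4.8e-06), and in dKO the log2 difference was -0.84 ± 0.18 (edgeR adjusted p = 0.00122). The ranges of Id2 and Tcf4 did not overlap between the populations in either genotype. Ranges without overlap were found for 2 of the 5 genes in controls and 3 of the 5 in dKO, against 56.4% and 51.8% of all genes. Id3 was 1.55-fold higher in dKO ImCD8 (0.63 ± 0.09, edgeR adjusted p = 6.06e-05) without overlap.

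In controls the Id3 difference was smaller, 0.25 ± 0.10 (edgeR adjusted p = 0.044), and the ranges overlapped. This call was lost without control ImCD4 replicate 1 (0.25, adjusted p = 0.0911) or 2 (0.17, adjusted p = 0.196), without control ImCD8 replicate 2 (0.21, adjusted p = 0.138) or 3 (0.23, adjusted p = 0.107), and without dKO ImCD4 replicate 1 (0.25, adjusted p = 0.0571). It was lost as well with RLE size factors or DESeq2 (0.24 each). Tcf3 and Tcf12, which encode the E proteins known from double-positive cells, did not pass the test between the populations. Tcf3 differed by 0.06 ± 0.10 in controls (edgeR adjusted p = 0.663) and -0.04 ± 0.10 in dKO (edgeR adjusted p = 0.79), and its sign in controls turned with scaling by library size alone (-0.01). Tcf12 differed by -0.09 ± 0.08 in controls (edgeR adjusted p = 0.369) and 0.10 ± 0.08 in dKO (edgeR adjusted p = 0.329).

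Ordered by level, Id2 was thus highest in dKO ImCD4 (824 ± 82.3 CPM) and control ImCD4 (696 ± 61.5), which did not differ past the threshold, followed by control ImCD8 (195 ± 39.8) and dKO ImCD8 (77.6 ± 10.6). Id3 ran from dKO ImCD8 (358 ± 42.2) through control ImCD8 (257 ± 18.7) to dKO ImCD4 (231 ± 13.2) and control ImCD4 (216 ± 22.8), the last 2 of which did not differ past the threshold, while control ImCD8 and dKO ImCD4 were not compared. Tcf4 ran from control ImCD4 (24.7 ± 1.93) through dKO ImCD4 (17.2 ± 3.999) to dKO ImCD8 (9.58 ± 1.83) and control ImCD8 (8.54 ± 0.829), with the ImCD4 groups apart from the ImCD8 groups. Tcf3 stood between 284 ± 37.3 CPM (dKO ImCD8) and 349 ± 29.9 CPM (control ImCD8), and Tcf12 between 118 ± 6.64 CPM (control ImCD8) and 130.1 ± 5.95 CPM (dKO ImCD8), with no pair compared that passed the test.

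Within each library the ratio of Id2 to Id3, both in CPM per kb, set the groups in the same order as Id2. It was 2.37 ± 0.0720 in control ImCD4 and 2.61 ± 0.117 in dKO ImCD4, and 0.562 ± 0.133 in control ImCD8 and 0.160 ± 0.0226 in dKO ImCD8. Id2 was the higher of the pair in all 6 ImCD4 libraries and Id3 in all 6 ImCD8 libraries. The ratio in dKO ImCD8 (0.146 to 0.186) lay below that in control ImCD8 (0.408 to 0.642), and in ImCD4 the ranges 2.31 to 2.45 and 2.54 to 2.74 did not overlap either. The exact permutation p is 0.1 for both, the smallest that 3 against 3 allow.

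While Id2 and Id3 moved in opposite directions in ImCD8, their sum overlapped between the genotypes. The summed Id level was 216, 213 and 241 CPM per kb in control ImCD8 and 260, 210 and 226 in dKO ImCD8. In ImCD4 it was 402, 371 and 446 CPM per kb in control and 459, 431 and 512 in dKO, with overlap. The summed E protein level, which is mostly Tcf3, was 91.9 ± 7.63 CPM per kb in control ImCD4, 80.8 ± 7.84 in dKO ImCD4, 94.4 ± 7.71 in control ImCD8 and 79.1 ± 9.55 in dKO ImCD8. The Id sum over the E protein sum was 4.46 ± 0.787 and 5.85 ± 1.10 in control and dKO ImCD4, and 2.38 ± 0.305 and 2.96 ± 0.475 in control and dKO ImCD8. These sums are of RNA and say nothing of protein dimers, and their size rests on the length used: without division by length the last ratio was 1.04 in dKO ImCD8 in place of 2.96. With members averaged on the log2 scale the order in ImCD8 turned, to 18.1 in control and 13.7 in dKO.

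**Figure D3:**
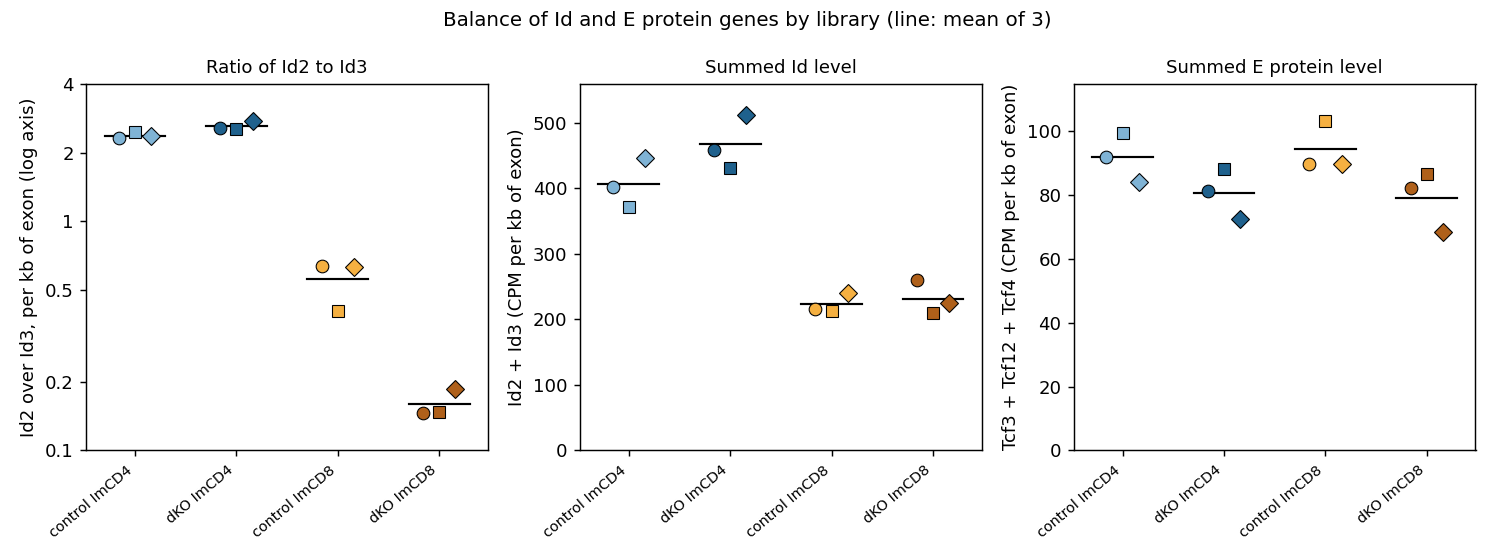
For each library (points) and group mean (lines): the ratio of Id2 to Id3 on a log axis, the summed level of Id2 and Id3, and the summed level of Tcf3, Tcf12 and Tcf4, all in CPM per kb of merged exon. The ratio separates the groups, from 0.146 in dKO ImCD8 to 2.74 in dKO ImCD4, while the Id sums of control and dKO ImCD8 overlap.

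Inside the groups the members also varied together with the library. Id2 was highest in replicate 3 of all 4 groups, by 0.14 to 0.25 log2 above its group mean, and these are the libraries that lay apart on the third principal component. Tcf3 was lowest in replicate 3 in 3 of the 4 groups and Tcf4 in 3 of the 4. Without the 4 libraries apart, Id2 in ImCD8 was still called, and a term for them left the call in place as well. With that term Id2 in ImCD4 was at 0.24 (adjusted p = 0.0771), and without the 4 libraries at 0.23 (adjusted p = 0.293). In replicate 2 of each group Id2 was lowest and Tcf3 was highest. What sets these libraries apart is not given in the labels, and its part in the results was not tested.

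**Figure D4:**
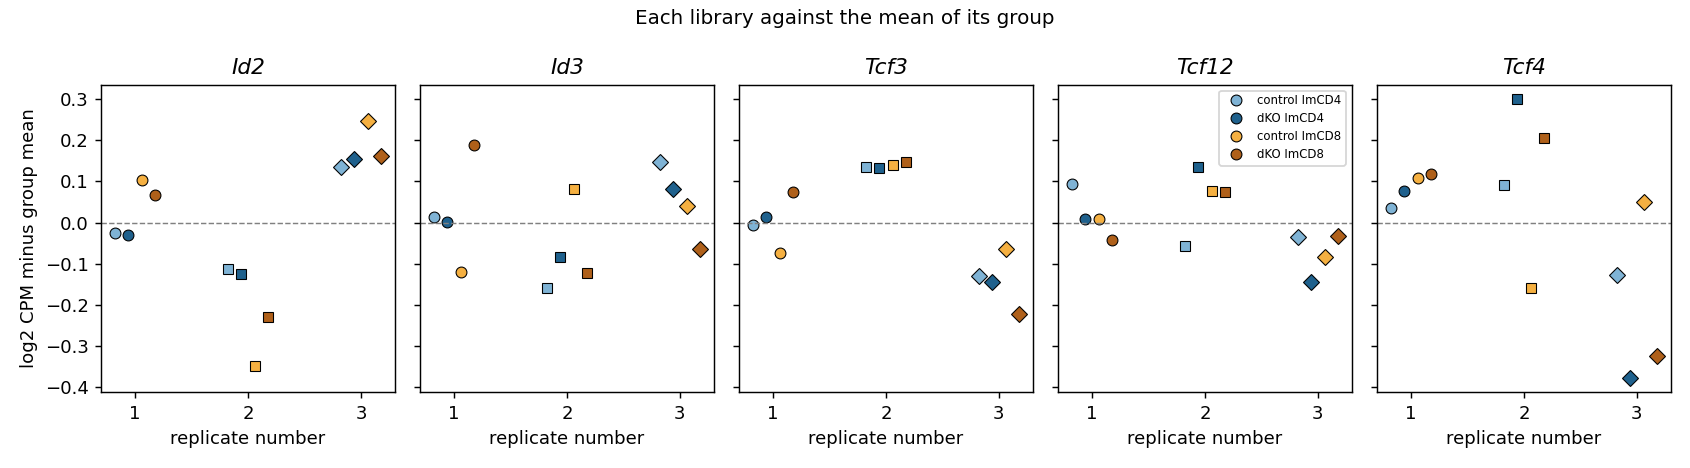
Log2 CPM of each library minus its group mean (y axis) for the 5 genes, by replicate number (x axis; the numbers name libraries and have no order); colours are the 4 groups. Id2 lies 0.14 to 0.25 above its group mean in replicate 3 of each group.

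Across the 12 libraries, log2 CPM of Id2 and Id3 ran against each other (Pearson r = -0.85) and Id2 ran with Tcf4 (r = 0.79). These values describe 12 points that share 2 populations and 2 genotypes. Among 8900 genes of at least 5 CPM, those most like Id2 were Yaf2 (r = 0.99), Hs3st3b1 (0.98) and Vipr1 (0.97). Vipr1 was at 45.8, 59.8, 15.1 and 6.76 CPM in the ImCD4 controls, the ImCD4 dKO libraries, and the same for ImCD8. Those most like Id3 were Mampt, as the files spell it (0.96), Tmem261 (0.94) and Csnk2b (0.94). For Tcf4 they were Nsun4 (0.99), Pou6f1 (0.97) and Uevld (0.97), and for Tcf3 Spata6 (0.94), Bcas3 (0.92) and Maged1 (0.91). Tcf12 varied little and had no gene above 0.76, with Zc3h6 (0.75), Themis (0.75) and Carf (0.74) nearest.

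Lists of genes around the pathway were read in the same fit, and no list was tested as a set. The counts of called genes below stand beside 13.4% of all genes called in ImCD4 (7.26% higher and 6.16% lower). In ImCD8 edgeR called 6.14% of all genes (2.62% higher and 3.53% lower). Of 15 Id genes and helix-loop-helix or LIM partners, 4 passed the filter (Id1, Lmo2, Lmo4 and Ldb1), and none was called in either dKO comparison by edgeR, DESeq2 or limma-voom (1 and 0 at an unadjusted p under 0.05 in ImCD4 and ImCD8). Id1 was low, at 1.87 ± 0.781 CPM in control ImCD4 and 0.303 ± 0.154 in control ImCD8. All 4 were called lower in ImCD8 than in ImCD4 in both genotypes, the same direction as Id2, as were 22.1% of all genes in controls and 21.6% in dKO. For Id1 and Lmo2 this direction was partly set by the filter on low counts. Their levels in ImCD8 were at most 0.736 and 0.455 CPM, so both passed only through ImCD4.

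Among coactivators and corepressors of E proteins, 5 of 7 were tested, and 3 were called lower in dKO ImCD4 (list median -0.26 against 0.02 over all genes) and 1 in dKO ImCD8 (median -0.15 against 0.01). Kat2b, which encodes the acetyltransferase PCAF, fell from 25.6 ± 1.97 to 15.1 ± 1.83 CPM in ImCD4 (-0.75 ± 0.13, edgeR adjusted p = 0.00144) and from 36.9 ± 4.03 to 25.4 ± 3.58 CPM in ImCD8 (-0.54 ± 0.13, edgeR adjusted p = 0.0164). Ep300 and Crebbp, which encode the acetyltransferases p300 and CBP, fell in ImCD4 by 0.28 and 0.26 log2 (edgeR adjusted p = 0.0143 and 0.0291). Ep300 lost its call without control ImCD4 replicate 1 or 3 or dKO ImCD4 replicate 2 or 3 (-0.28, -0.26, -0.24 and -0.25). Crebbp lost it without control ImCD4 replicate 1 or 3 or dKO ImCD4 replicate 1, 2 or 3 (-0.21, -0.27, -0.28, -0.23 and -0.27). Kat2b in ImCD8 lost it without control ImCD8 replicate 1 or 3 or dKO ImCD8 replicate 1 (-0.50, -0.49 and -0.45).

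Of 6 genes of Id and E protein turnover, 1 rose and 1 fell in ImCD4, and 1 fell in ImCD8. Cks1b, a cofactor of the SKP2 ubiquitin ligase, fell in both, by 0.55 ± 0.14 log2 in ImCD4 (edgeR adjusted p = 0.0159) and by 0.84 ± 0.15 in ImCD8 (edgeR adjusted p = 0.0033). Usp1, whose product removes ubiquitin from Id proteins, rose by 0.22 ± 0.07 in ImCD4 (edgeR adjusted p = 0.0384), and this call was lost without any 1 of the 6 ImCD4 libraries (0.22 to 0.23, adjusted p = 0.0763 to 0.1). The Cks1b call in ImCD4 was lost without control ImCD4 replicate 1 or 3 or dKO ImCD4 replicate 1 or 2 (-0.55, -0.47, -0.50 and -0.53). Of 16 genes of T cell receptor, TGF-beta and BMP signalling upstream of Id genes, 2 rose and 1 fell in ImCD4. In ImCD8 edgeR called 0 of them (5 at an unadjusted p under 0.05), DESeq2 2 and limma-voom 1. Smad3 rose from 111 ± 7.11 to 155 ± 4.12 CPM (0.47 ± 0.07, edgeR adjusted p = 0.000415) and the receptor gene Tgfbr2 from 266 ± 7.70 to 356 ± 20.5 CPM (0.42 ± 0.07, edgeR adjusted p = 0.000828). Smad5 fell by 0.45 ± 0.11 (edgeR adjusted p = 0.0144), a call lost without control ImCD4 replicate 1 or 2 or dKO ImCD4 replicate 2 or 3 (-0.43, -0.34, -0.42 and -0.40).

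Of 20 thymocyte genes known to be under E protein control, 18 were tested. In ImCD4 4 rose and 2 fell (median 0.08 against 0.02 over all genes), and in ImCD8 3 rose and 1 fell (median 0.05 against 0.01). Dntt, which encodes terminal transferase, rose in both populations, from 48.7 ± 8.73 to 84.1 ± 4.76 CPM in ImCD4 (0.79 ± 0.15, edgeR adjusted p = 0.00383) and from 44.1 ± 8.87 to 106 ± 14.3 CPM in ImCD8 (1.26 ± 0.15, edgeR adjusted p = 0.000204). Cxcr5, a chemokine receptor gene that E2A is known to induce and Id proteins to restrain, rose from 1 count in all to 23 in ImCD4 (ratio of scaled counts 20.0, 95% counting interval 3.25 to 824) and from 21 to 62 in ImCD8 (ratio 2.73, interval 1.64 to 4.71). The Cxcr5 call in ImCD8 (1.45 ± 0.40, edgeR adjusted p = 0.0402) was lost without any 1 of 8 libraries: control ImCD4 replicate 2, dKO ImCD4 replicates 1 and 2, control ImCD8 replicates 1 and 2 and all 3 of dKO ImCD8 (1.28 to 1.54, adjusted p = 0.0502 to 0.154). Cxcr5 passed the filter on low counts only through dKO ImCD8, the group called higher (2.02 to 2.54 CPM against 0.563 to 1.17 in control ImCD8).

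In ImCD4, Gfi1 rose by 0.68 ± 0.13 (edgeR adjusted p = 0.00227) and Socs3 fell by 1.99 ± 0.46 (edgeR adjusted p = 0.0089) from 46 counts to 13. Socs1 and Il7r, named after their values were seen, were the other calls, at 0.74 and -0.37 log2. In ImCD8, Notch3, a Notch receptor gene of early thymocytes, fell from 13.3 ± 3.13 to 2.02 ± 0.772 CPM (-2.72 ± 0.28, edgeR adjusted p = 1.66e-05). Gata3 rose there from 51.4 ± 5.42 to 71.3 ± 7.95 CPM (0.48 ± 0.10, edgeR adjusted p = 0.00632). Rag1, an E protein target of the double-positive stage also named after its values were seen, was not called in either population.

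**Figure D5:**
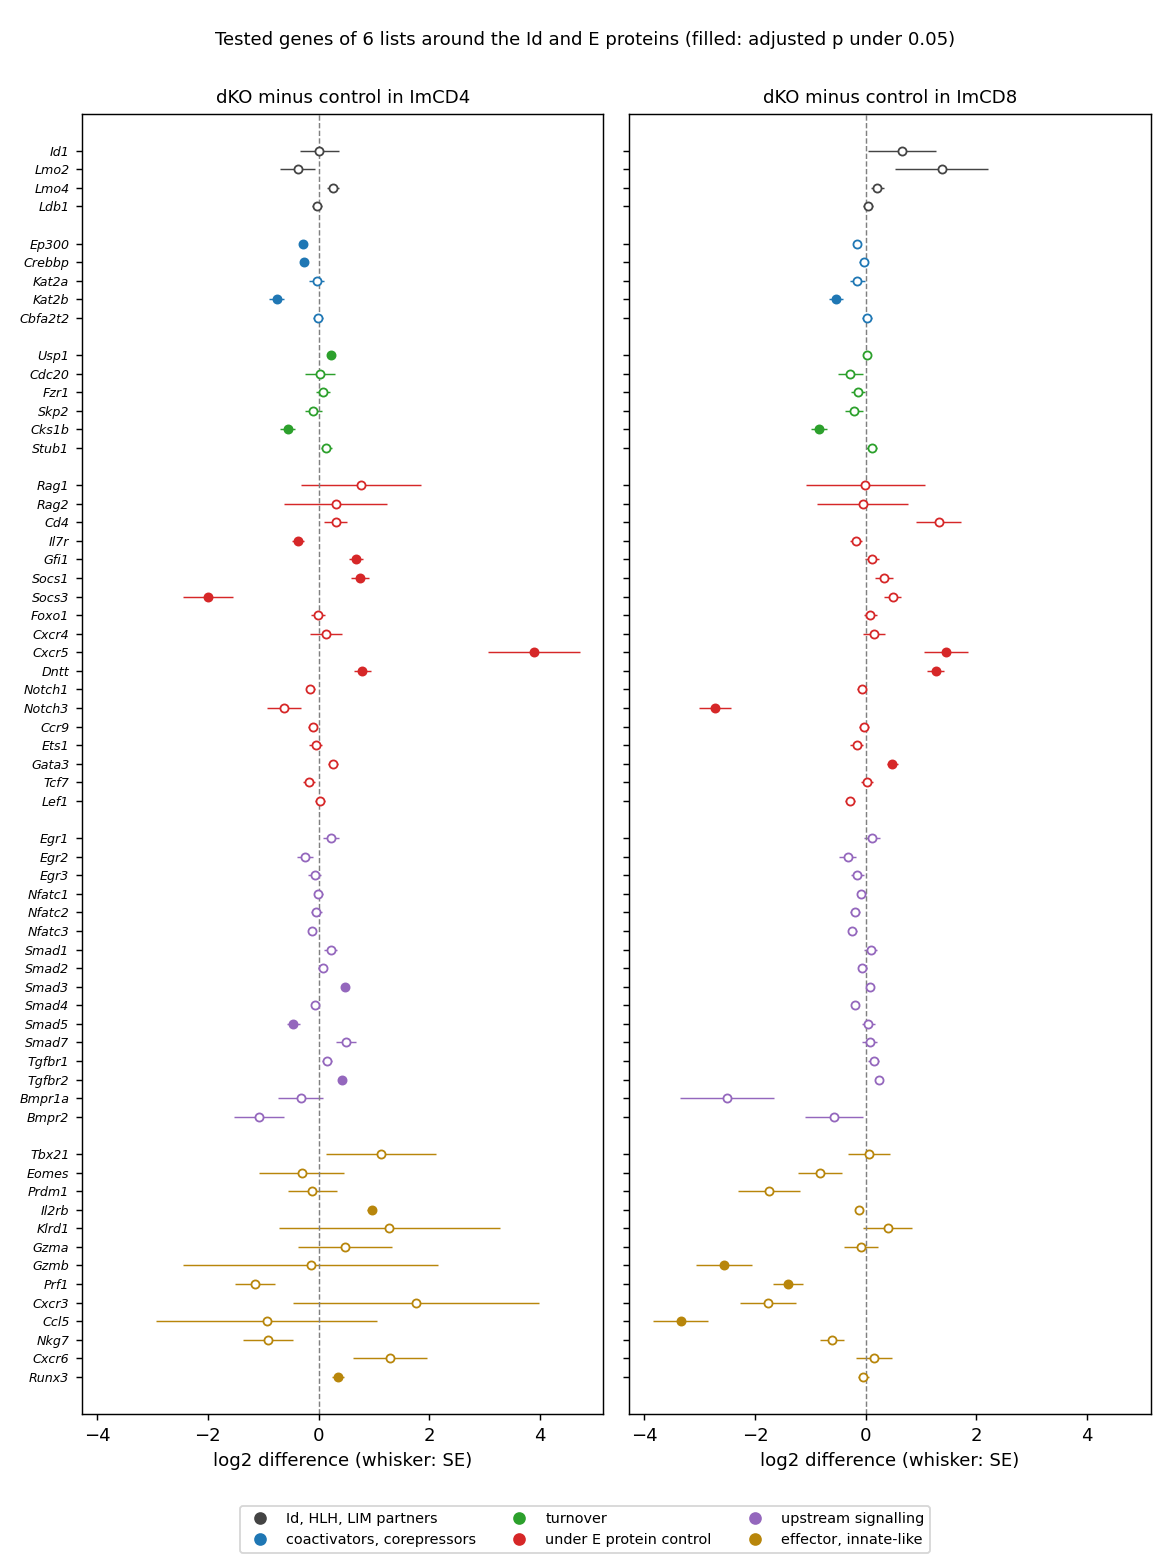
Log2 difference of dKO minus control (x axis, whiskers SE) in ImCD4 and in ImCD8 for the 62 tested genes of 6 lists (y axis, coloured by list); filled points passed an edgeR adjusted p under 0.05. Calls were made for 16 of the 62 in ImCD4 and 9 in ImCD8, where 13.4% and 6.14% of all tested genes were called.

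Effector and innate-like genes known from cells rich in Id2 were, in controls, mostly higher in ImCD8 (12 of 13 tested called higher, against 23.1% of all genes), where Id2 was lower. That count was partly set by the filter on low counts. Tbx21, Eomes, Klrd1, Gzma, Gzmb, Cxcr3 and Ccl5 were at 0.824 CPM or less in every ImCD4 library. They passed only through ImCD8, the population called higher. In dKO ImCD8 3 of the 13 fell (median -0.61 against 0.01), where 3.53% of all genes were called lower. In dKO ImCD4 2 of the 13 rose (median 0.36 against 0.02), where 7.26% of all genes were called higher. The chemokine gene Ccl5 was at 30.1, 22.5 and 80.0 CPM in control ImCD8 and at 6.99, 2.85 and 3.64 CPM in dKO ImCD8 (-3.34 ± 0.50, edgeR adjusted p = 0.00299). The perforin gene Prf1 was at 37.0, 37.9 and 61.0 against 16.3, 13.3 and 21.8 CPM (-1.41 ± 0.27, edgeR adjusted p = 0.00792). Gzmb was at 7.51, 3.38 and 16.8 against 2.03, 1.29 and 1.48 CPM (-2.56 ± 0.50, edgeR adjusted p = 0.00772). All 3 were highest in control ImCD8 replicate 3, in which Id2 was highest among the ImCD8 libraries too. Within dKO ImCD8, Id2 and Prf1 were highest in replicate 3, but Ccl5 and Gzmb in replicate 1. In ImCD4, where Id2 did not fall, Prf1 was at 7.92 ± 2.90 CPM in control and 3.50 ± 0.947 CPM in dKO. That difference was not called (-1.15 ± 0.36, edgeR adjusted p = 0.0541). Within both ImCD4 groups Prf1 was lowest in replicate 3 (4.66 CPM in control and 2.46 in dKO), in which Id2 was highest. In ImCD4, Il2rb, the shared receptor chain of IL-2 and IL-15, rose from 35.8 ± 2.99 to 69.4 ± 3.09 CPM (0.96 ± 0.08, edgeR adjusted p = 1.15e-06), and its effect differed from that in ImCD8 (edgeR adjusted p = 0.000159). Runx3 rose by 0.36 ± 0.11 (edgeR adjusted p = 0.036), a call lost without control ImCD4 replicate 1 or 3 or dKO ImCD4 replicate 1 or 2 (0.38, 0.25, 0.33 and 0.30).

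In sorted cells, fewer cells of a type and less RNA per cell cannot be told apart, so markers of other cells are given beside the Id results. By level the coreceptor genes went with the gates. Cd4 was at 1115 and 1380 CPM in control and dKO ImCD4 and at 3.06 and 7.66 CPM in ImCD8. Cd8b1 was at 99.4 and 116 against 2063 and 2041 CPM. Cd69, whose product was used in both gates, was at 624 and 619 against 204 and 212 CPM. Genes for CD44, H2-Kb and TCRb were in none of the lists, so those parts of the gates were not checked. Of 12 T cell genes, which include the sort markers Cd4, Cd8a, Cd8b1 and Cd69, Cd3g and Runx3 were called higher and Cd247 lower in dKO ImCD4. In dKO ImCD8, Cd247 and Itgae were called lower. These called genes encode none of the proteins used for sorting. The Cd3g call was lost without control ImCD4 replicate 2 or 3 or dKO ImCD4 replicate 2 or 3 (0.25, 0.29, 0.31 and 0.26), and the Itgae call without control ImCD8 replicate 1 or 3 or dKO ImCD8 replicate 1 (-0.34, -0.34 and -0.27). Lck was at 1379.8 ± 89.7 and 1254 ± 93.7 CPM in control and dKO ImCD4 and at 1526.5 ± 83.7 and 1367.5 ± 19.2 CPM in ImCD8. NK and innate lymphoid cells are rich in Id2: their 8 markers summed to 18.1 to 32.0 CPM in control ImCD4, 17.1 to 47.9 in dKO ImCD4, 29.6 to 32.7 in control ImCD8 and 22.3 to 47.9 in dKO ImCD8, led by Rora and Eomes, with Ncr1 and Klra8 at 0 in all 12 libraries. None of the 3 tested was called in a dKO comparison by edgeR, DESeq2 or limma-voom or had an unadjusted p under 0.05. The sums overlapped between genotypes in both populations, and the part of these cells in the Id2 result was not tested. Of 5 NKT markers 2 were tested (Slamf6 and Cxcr6), with 0 called by edgeR or at an unadjusted p under 0.05 and 1 by DESeq2 in ImCD4, and their sums overlapped between genotypes. Klrb1c, which stands in both the NK and the NKT list, did not pass the filter on low counts. It had 2 counts in control ImCD8 (0 to 0.141 CPM) and 24 in dKO ImCD8 (0.552 to 1.14 CPM), without overlap.

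Among double-positive thymocyte markers, Dntt rose in ImCD8, the direction of Id3 and the opposite of Id2. It rose in ImCD4 too, where neither Id gene was called. The ImCD4 effect on Dntt minus the ImCD8 effect was not called (-0.47, edgeR adjusted p = 0.487). The 7 genes of the list, led by Cd1d1 and Dntt, summed to 112 to 143 CPM in control ImCD8 and 170.0 to 209.5 CPM in dKO ImCD8, without overlap, against 159 to 192 and 173 to 224 CPM in ImCD4. Dntt alone went from 44.1 to 106 CPM in ImCD8, while Cd1d1 was at 67.4 and 61.4 CPM in control and dKO ImCD8. Of the 6 tested, edgeR called only Dntt, higher in both populations (limma-voom called 2 in ImCD4 and 1 in ImCD8), and the part of this list in the Id2 and Id3 results was not tested. Thymic epithelial markers, led by Ly75 and Epcam, summed to 93.3 to 98.6 CPM in control ImCD8 and 107 to 119 CPM in dKO ImCD8, with Epcam called higher there (0.85 ± 0.21, edgeR adjusted p = 0.0196) and Foxn1, Krt5 and Krt14 near 0. The Epcam call was lost without control ImCD8 replicate 1 or 3 or dKO ImCD8 replicate 1 (0.80, 0.85 and 0.57). Gamma-delta T cell markers summed to 29.6 to 32.6 CPM in control ImCD4 and reached 194 to 303 CPM in dKO ImCD4. Nearly all of that rise was Sox13. Of 6 tested, Sox13 (20.3 ± 1.39 against 218 ± 58.7 CPM) and Tcrg-C1 were called higher there, and Trdc was not called. Cd163l1 was called higher in dKO ImCD8, the only group through which it passed the filter on low counts. It was at 4.19 to 6.94 CPM there and at 0 to 0.744 CPM in control ImCD8.

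Plasmacytoid dendritic cells are rich in Tcf4. Their 8 markers summed to 1870 to 2173 CPM in control ImCD4, 1735 to 1926 CPM in dKO ImCD4, and to 955 to 1048 and 861 to 991 CPM in ImCD8, nearly all of it Ccr9 and Pacsin1, which thymocytes express too. Pacsin1 was called lower and Irf8 higher in both populations, Klk1 was at 0 in all libraries, and Siglech was at 0.0393 ± 0.068 CPM in control ImCD4 and at 0 in dKO ImCD4. The Irf8 call was lost in ImCD4 without control ImCD4 replicate 2 or 3 or dKO ImCD4 replicate 1 or 2 (0.57, 0.52, 0.57 and 0.57), and in ImCD8 without control ImCD8 replicate 1 or 3 or dKO ImCD8 replicate 1 (0.57, 0.57 and 0.53). Of 9 B cell markers 4 were tested and Cd79b was called higher in dKO ImCD8 (1.32 ± 0.24, edgeR adjusted p = 0.0037). Their sums, nearly all Ighm, were 71.5 to 94.9 and 64.1 to 91.1 CPM in ImCD4 and 312 to 404 and 369 to 501 CPM in ImCD8 (control and dKO). Of 10 myeloid and dendritic markers 4 were tested and 0 called by edgeR (in ImCD4 1 at an unadjusted p under 0.05 and 1 by limma-voom). They summed to 108 to 124 CPM in control ImCD4 against 140 to 151 CPM in dKO ImCD4, without overlap, and to 119 to 139 and 123 to 173 CPM in ImCD8, led by Cst3 and Cd74, with Clec9a at 0 in all libraries. The part of these lists in the Tcf4 values was not tested.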

How the data were processed

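RNA of 12 libraries was measured by SMARTer low-input mRNA sequencing. The deposited values are whole-number counts of reads per gene; per the submitters' processing notes, the authors made them on mm10 with STAR 2.6.1 after trimming by cutadapt 1.18, and counted with HTSeq. Which annotation and strand mode HTSeq had is not stated in the sources used here. The 5 summary rows of each file were left out of library sizes; reads in no gene were 10.5% to 16.4%. Genes were kept with filterByExpr (minimum count 10, total 15), and 13383 were tested with edgeR 4.0.16 (R 4.3.3; TMM, robust quasi-likelihood fit of 4 group means over all 12 libraries, 8 residual degrees of freedom, Benjamini-Hochberg adjustment over all tested genes, threshold 0.05). Intervals of log2 differences are 95%, from the SE derived from the test's F value and a t distribution with 8 degrees of freedom. The p-values rest on more degrees of freedom, so the intervals are wider than those p-values imply. The script was tested on simulated data. Alternatives were RLE or library-size scaling, DESeq2 1.42.0, limma-voom 3.58.1, other filters, fits of fewer libraries, each library left out, and a term for or removal of the 4 libraries apart. The length of the longest principal transcript was added after seeing the data. The members and lists were chosen with earlier results of these data known. A gene of 2 lists is not reported here and was left out of their counts after the values were seen. The genes named are all 5 members, up to 4 called genes per pathway list and dKO comparison, called and top markers, and the 3 genes most like each member; predicted genes, clone names, pseudogenes and receptor segments were left out of the last. Lengths come from GENCODE M21, whose GRCm38 is the build that mm10 names, and upstream sequences from RefSeq (GRCm38.p6). Precision for Tcf4 is limited by counting error (54 to 238 counts per library) and by the spread between libraries, as in dKO ImCD4 (12.9 to 20.9 CPM).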

Additional observations from a re-analysis of the deposited data

Results flagged for a closer look

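The effect of losing Zfp148 and Zfp281 differed between ImCD4 and ImCD8 cells, by the edgeR test of the difference itself, for Id2 and for 3 genes of the lists around it. The ImCD4 effect minus the ImCD8 effect was 1.57 log2 for Id2, which fell in dKO ImCD8 (-1.33) and did not pass the test in ImCD4 (0.24). It was 1.07 for Il2rb, which rose in dKO ImCD4. It was -2.48 for Socs3, which fell in ImCD4 from low counts, and 2.1 for Notch3, which fell in ImCD8. The Socs3 call was lost without control ImCD4 replicate 1 (-2.14), dKO ImCD4 replicate 2 or 3 (-2.27 and -2.34), or replicate 1 of control or dKO ImCD8 (-2.52 and -2.50). The Notch3 call was lost without any 1 of 9 libraries (1.86 to 2.15), those other than control ImCD4 replicate 2, control ImCD8 replicate 3 and dKO ImCD8 replicate 1. The direction in ImCD8 rests on grouping by title.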

How the results depend on the processing

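No paired analysis was possible because the titles number the libraries from 1 to 12 without repeats, so the groups share no replicate numbers. Of 520 values of the 5 genes under 21 alternative settings, 492 kept their direction and their side of the threshold. In every one of its alternatives the Id2 fall in ImCD8 was called (-1.48 to -1.20), as were the Id3 rise there (0.38 to 0.54) and the Id2 difference between populations (1.45 to 1.73). The 4 libraries apart were chosen from earlier results of these data. The cause of the changes below was not tested.

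Tcf4 in ImCD4 was called with DESeq2 (-0.52), limma-voom (-0.49), no filter (-0.52), a filter at 5 CPM (-0.54), only the libraries compared (-0.53) and a term for the 4 libraries (-0.53), and ran from -0.68 to -0.35 without single libraries. The count of called members in ImCD4, 0 in the report, was 1 in each of these settings except without the filter, where it was 2 because Id2 was called too (0.24), and 0 to 1 without single libraries. Without the filter Tcf3 in ImCD8 was called (-0.28), and the difference between populations was called for 2 members, with Id3 at -0.40; the term for the 4 libraries called Tcf3 in ImCD8 (-0.30). Id3 between control populations was not called with RLE factors (0.24), library size only (0.18), DESeq2 (0.24) or the 5 CPM filter (0.23), and ran from 0.17 to 0.32 without single libraries. Signs turned for values near 0: Tcf12 in ImCD4 (-0.12 to 0.02 without single libraries; 0.0163 without dKO ImCD4 replicate 3), the Tcf3 difference (-0.0006 to 0.19; the lowest without dKO ImCD8 replicate 3), Tcf3 between control populations (-0.0096 with library size only; -0.01 to 0.13 without single libraries, below 0 without control ImCD4 replicate 3, -0.0018, and control ImCD8 replicate 2, -0.0109) and Tcf3 between dKO populations (-0.14 to 0.06; above 0 without dKO ImCD4 replicate 2, 0.03, and dKO ImCD8 replicate 3, 0.0625). In the order control ImCD4, dKO ImCD4, control ImCD8, dKO ImCD8, the Id to E protein ratio was 1.89, 2.48, 0.955 and 1.04 without division by length, and 22.1, 30.2, 18.1 and 13.7 with members averaged on the log2 scale, where the order of control and dKO ImCD8 turned. The Id2 to Id3 ratio was 3.23, 3.55, 0.764 and 0.218 without division by length, and 2.09 and 2.31 in control and dKO ImCD4 with the length of the principal transcript.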
